A study of Mus musculus with 24 samples.

Results

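The genes described here are the 10 that encode the cyclic GMP makers of the photoreceptor, their calcium sensors, and the proteins that switch the light response off or bring the enzymes to the outer segment. They were picked by gene symbol: the retinal guanylate cyclases Gucy2e and Gucy2f, the cyclase activating proteins Guca1a and Guca1b, recoverin (Rcvrn), the visual pigment kinase Grk1, the GTPase accelerating protein Rgs9 and its anchor Rgs9bp, the chaperone Aipl1 and the cyclase trafficking protein Rd3. All 10 were found among the 46603 annotated genes of the count files, and 9 passed the filter on low counts. Guca1b did not pass it.

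The RNA came from mouse retinal organoids (MROs), 3-dimensional retinal tissue grown from the mouse embryonic stem cell line E14TG2a. In the protocol early aggregates are cut into pieces. MROs were collected at day 20, 22, 25 and 30 of culture (D20, D22, D25 and D30), with 6 single MROs at each timepoint and 1 library for each MRO. All 24 carry the genotype label Control, and per the labels nothing but water as a solvent was added, after early culture with the retinoid analog EC23. The comparison across days asks how the transcriptome of the MROs changes as retinal development proceeds. The design has limits as a model: 1 cell line and 1 differentiation experiment supplied every MRO, and each library mixes all cells of an MRO. The p-values therefore measure the spread between MROs of that experiment. In such bulk RNA, fewer cells of a type and less RNA per cell cannot be told apart.

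In the dark, a photoreceptor guanylate cyclase makes cyclic GMP, which holds open the cation channel of the outer segment. Light activates opsin, transducin and a phosphodiesterase that destroys cyclic GMP, so the channel closes and intracellular calcium falls. The calcium fall releases the cyclase activating proteins to stimulate the cyclase and releases recoverin from GRK1, while the complex of RGS9 with its anchor RGS9BP and the G protein subunit GNB5 speeds the inactivation of transducin. AIPL1 is a chaperone of the phosphodiesterase and RD3 carries and restrains the cyclases. Loss of several of these proteins causes childhood blindness or slowed recovery from light.

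The windows before the start sites of the genes are shown for those that hold the core letters of the site bound by homeodomain factors of the CRX and OTX type because Crx is the reference of the ratios given further on. RefSeq (GRCm38.p6) gave a start site for 7 of the 10 genes. The 250 bases upstream were searched for TAATCC on both strands, where the other strand reads GGATTA, and 4 of 7 genes held it: Gucy2e, Gucy2f, Guca1a and Aipl1. The same holds for 6.25% of 32851 RefSeq windows of that length. Grk1, Rgs9 and Rd3 have no match in their windows, and Rd3 was searched at both of its start sites. The letters TGCTGA, searched on both strands and found in the sites of MAF factors such as NRL, stood in the windows of Rgs9 and Aipl1 and in 16.1% of all windows, and they overlapped no TAATCC match. Each window is printed on the strand of its gene from 5′ to 3′ and ends just before the start site, with TAATCC or GGATTA in capitals. The windows are chr11:69237023-69237272 for Gucy2e, chrX:142196937-142197186 for Gucy2f, chr17:47400607-47400856 for Guca1a and chr11:72037510-72037759 for Aipl1, all on the minus strand.
Gucy2e upstream: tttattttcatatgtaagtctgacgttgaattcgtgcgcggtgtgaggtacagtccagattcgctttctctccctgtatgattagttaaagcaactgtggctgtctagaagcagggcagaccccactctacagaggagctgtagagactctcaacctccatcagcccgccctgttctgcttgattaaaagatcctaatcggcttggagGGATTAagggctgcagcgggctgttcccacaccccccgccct
Gucy2f upstream: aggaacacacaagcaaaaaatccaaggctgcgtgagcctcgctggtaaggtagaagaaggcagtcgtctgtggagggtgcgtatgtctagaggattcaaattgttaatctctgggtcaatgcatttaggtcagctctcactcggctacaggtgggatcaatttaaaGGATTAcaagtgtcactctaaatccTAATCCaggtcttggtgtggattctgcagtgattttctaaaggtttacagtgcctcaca
Guca1a upstream: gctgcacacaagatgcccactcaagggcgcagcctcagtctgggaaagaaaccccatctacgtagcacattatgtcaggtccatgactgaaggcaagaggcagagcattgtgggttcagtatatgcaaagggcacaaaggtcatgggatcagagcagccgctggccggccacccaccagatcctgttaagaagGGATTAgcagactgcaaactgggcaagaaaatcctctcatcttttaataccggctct
Aipl1 upstream: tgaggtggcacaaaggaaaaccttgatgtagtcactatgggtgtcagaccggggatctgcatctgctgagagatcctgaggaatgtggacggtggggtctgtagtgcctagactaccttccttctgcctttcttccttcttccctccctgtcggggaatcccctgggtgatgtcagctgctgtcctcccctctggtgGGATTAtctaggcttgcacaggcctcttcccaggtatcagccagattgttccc
The match in Gucy2e begins 42 bases before the start site, that in Aipl1 53, that in Guca1a 57 and those in Gucy2f 84 and 59. These 4 genes ran through different courses and a match is a description of the letters, not evidence of binding.

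The libraries held 13634846 to 19477108 reads counted to features, so that 3 reads corresponded to 0.154 to 0.22 CPM. CPM are reads of a gene for every 1000000 counted reads of the library, and levels are given as normalized CPM, which are CPM after TMM scaling for composition. Defining photoreceptor markers were present at every timepoint: the summed level of 8 markers, including Crx, Nrl and Prph2, had a median of 2080 normalized CPM at D20 and 4870 at D30. Markers of other retinal cells moved over the same days. The summed level of 7 bipolar cell markers ran from 28.1 to 36.1 normalized CPM at D20 and from 213 to 341 at D30, and that of 4 Müller glia markers from 264 to 366 at D20 and from 564 to 1990 at D30. A list of 8 forebrain markers summed to 53.9 to 215 normalized CPM at D20, 21.8 to 51.7 at D22, 30.7 to 259 at D25 and 30.5 to 226 at D30. Every D20 MRO thus lay above every D22 MRO, and the others overlapped. The summed level of 7 cone markers had medians between 115 and 143 at all timepoints. Most of it was Thrb, with means of 78.3 at D20 and 106 at D30. Between these days Opn1sw fell from 12.6 to 1.71 and Rxrg from 11.3 to 2.67. Gnat2 rose from 13.0 to 24.4 and Arr3 from 2.51 to 5.85. The summed level of 4 pineal markers had medians of 75.3 at D20 and 14 at D30, nearly all of it Lhx9, with means of 75.3 and 12.4. Tph1 had means of 0.321 and 2.47, Aanat 0.0115 and 0.0313, and Asmt 0 and 0.0115. The summed level of 4 pigment epithelium markers had medians of 8.91 and 20.5, with no read of Rpe65 at D20. The part of these cell types in the results below was not tested.

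Across the whole culture period the genes moved upward. From D20 to D30 all 9 tested genes rose at an adjusted p below 0.01 (edgeR quasi-likelihood test, Benjamini-Hochberg adjustment over 46949 features), beside 13.9% of all features tested, and in all 9 the lowest D30 MRO lay above the highest D20 MRO, which held for 9.6% of all features. The median change of the 9 was 3.14 on the log2 scale, against -0.04 over all features. The count of genes that rose was 8 of 9 from D20 to D22 (background 1.62%), 8 of 9 from D22 to D25 (background 3.08%) and 6 of 9 from D25 to D30 (background 1.76%). Among annotated genes alone the background was 2.56%, 7.33% and 4.55% in the 3 steps, and 25.1% from D20 to D30. The first of these counts leaned on single MROs: it was 5 without D20 replicate 2, 3 or 6, and 8 at most. Consecutive steps share the MROs of the middle timepoint and are not independent. The MROs of the later timepoint all lay above those of the earlier one in 6, 6 and 4 of the 9 genes in the 3 steps, against 1.48%, 3.17% and 2.14% of all features. None of the 9 fell in any comparison by edgeR, where 0.285%, 2.19% and 1.75% of all features fell in the 3 steps and 13.0% from D20 to D30. None had an unadjusted p under 0.05 in that direction, and DESeq2 called 0 lower as well.

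**Figure D1:**
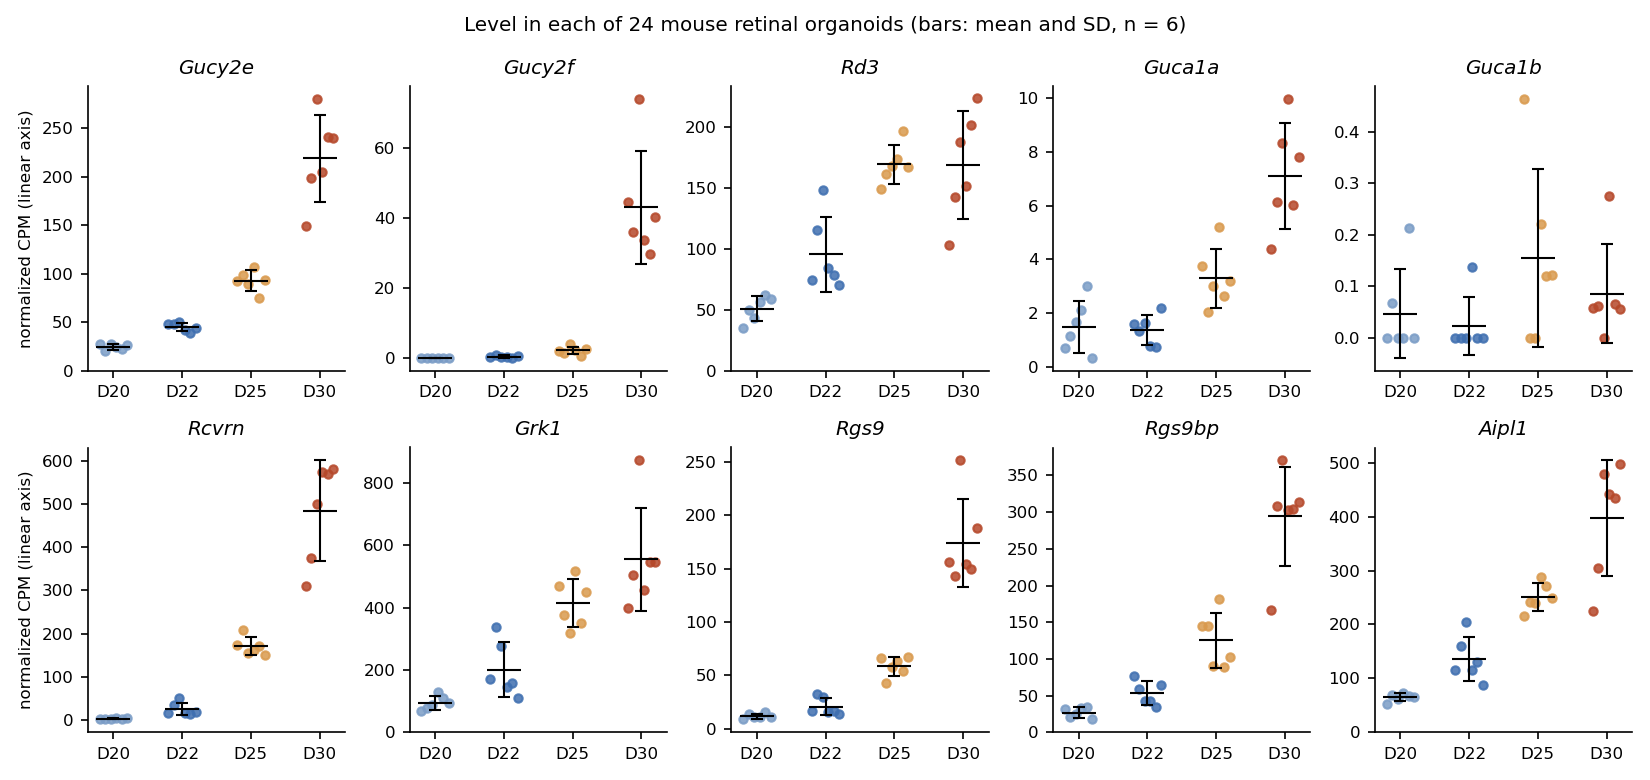
Normalized CPM (linear axis, scale set for each gene) of the 10 genes in each of 24 MROs at D20, D22, D25 and D30. Points are MROs, horizontal bars the mean and whiskers the SD (n = 6). Rcvrn climbed from a mean of 2.89 to 484.5, Rd3 levelled at 169.5 and 168.7 at D25 and D30, and Guca1b stayed at or below 0.463 throughout.

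The cyclases Gucy2e and Gucy2f make the same product but followed different courses. Gucy2e (chr11:69218117-69237036, minus strand, GRCm38, 19 merged exons) is the mouse counterpart of the human cyclase gene mutated in congenital blindness. Its D20 MROs ran from 20.35 to 27.41 normalized CPM with a median of 25.71, its D22 MROs from 39.2 to 50.46 with a median of 46.07, its D25 MROs from 75.54 to 107.4 with a median of 93.06, and its D30 MROs from 149.7 to 280.5 with a median of 222.4. No timepoint overlapped the next. The means were 24.85 ± 2.92, 45.35 ± 4.43, 92.9 ± 10.6 and 219 ± 45.0 normalized CPM (SD, n = 6). The log2 fold changes of the 3 steps were 0.87, 1.03 and 1.24 (SE 0.119, 0.118 and 0.117), with edgeR adjusted p of 4.03e-05, 1.17e-06 and 1.53e-08, and the whole rise was 8.81-fold.

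Gucy2f, on the X chromosome (chrX:142081160-142196931, minus strand, GRCm38), was close to undetected at the start. One read in all was counted in the 6 D20 MROs, 5 of which were at 0. At D22 the MROs held between 1 and 13 reads, a level of 0.0719 to 0.907 normalized CPM, and at D25 between 11 and 63 reads, a level of 0.654 to 3.85. At D30 the MROs reached 29.57 to 73.85 normalized CPM with a median of 38.05, and the lowest D30 MRO was far above the highest D25 MRO. The D22 and D25 MROs overlapped, and so little was read at D20 that the D20 level rests on that 1 read.

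The step from D25 to D30 in Gucy2f was 4.32 on the log2 scale (SE 0.327, edgeR adjusted p = 2.19e-10), against 1.24 for Gucy2e in the same MROs. The summed reads gave a D30 to D20 ratio of 3850, with a 95% exact interval from 691 to 152000 that covers counting error only. For D22 against D20 the ratio was 33.8, with an interval from 5.68 to 1380, and the edgeR adjusted p was 0.00401. That early call was lost, at adjusted p up to 0.0164, when D20 replicate 2, 3, 4, 5 or 6 or D22 replicate 2 was left out.

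Within each MRO, reads of Gucy2e therefore outnumbered those of Gucy2f by less and less. The log2 ratio of the counts (with 1 added to each) averaged 6.94 ± 0.965 at D22, 5.57 ± 0.757 at D25 and 2.39 ± 0.472 at D30 (SD, n = 6). It fell by 1.37 from D22 to D25 (exact two-sided permutation test over 924 splits, adjusted p = 0.0278, groups overlapping) and fell by 3.18 from D25 to D30 (exact permutation, adjusted p = 0.00316, no overlap). The smallest p these splits allow is 0.00216, and p-values were adjusted over 54 ratio tests. Expressed per kb of exon, Gucy2f made up 0.923% ± 0.704 of the sum of both cyclases at D22. This share was 2.51% ± 1.26 at D25 and 18.2% ± 4.9 at D30, with MROs between 12.2% and 25.2%.

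Rd3 (chr1:191977370-191988283, plus strand, GRCm38), the partner that escorts the cyclases, rose early and then stopped. The medians were 53.52 normalized CPM at D20, 81.71 at D22, 167.8 at D25 and, hardly higher, 169.7 at D30. The D30 MROs ran from 103.6 to 224.3 and enclosed the whole D25 range of 149.3 to 197.2, whereas D20, D22 and D25 did not overlap. Its log2 fold change was 0.90 in the first step and 0.83 in the second (edgeR adjusted p = 0.00151 and 0.00156), then -0.01 from D25 to D30 (SE 0.169, adjusted p = 0.993). Against Gucy2e in the same MRO the log2 count ratio was 1.02, 1.03 and 0.87 at the first 3 timepoints and -0.39 at D30. The drop of 1.26 in the last step had no overlap (exact permutation, adjusted p = 0.00316). These counts are not corrected for gene length. Per kb of exon the mean of Rd3 at D30 was still above that of Gucy2e, at 31.8 against 23.8 normalized CPM per kb. An antisense gene, Gm26670, shares 1452 exon bases with Rd3, and whether the counting used strand is not given in the sources used here. Gm26670 itself had means between 4.45 and 4.79 normalized CPM at all timepoints.

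The calcium sensors of the cyclase had low levels as normalized CPM, which are not corrected for gene length. Per kb of exon Guca1a averaged 8.14 normalized CPM at D30, beside 5.28 for the cyclase Gucy2f. Guca1a, which encodes the cyclase activating protein GCAP1 (chr17:47394558-47400584, minus strand, GRCm38), ran from 0.32 to 2.99 normalized CPM at D20 and from 0.719 to 2.2 at D22, with full overlap. At D25 it ran from 2.02 to 5.2 with a median of 3.08, and at D30 from 4.4 to 9.98 with a median of 6.97. Every D30 MRO lay above every D20 MRO. The log2 change was -0.11 from D20 to D22 (SE 0.374, edgeR adjusted p = 0.924), 1.26 from D22 to D25 (SE 0.362, adjusted p = 0.0204) and 1.10 from D25 to D30 (SE 0.341, adjusted p = 0.045), none past the threshold of 0.01, while D30 against D20 gave 2.26 (SE 0.362, adjusted p = 8.82e-06). The D22 to D25 change passed by DESeq2 (adjusted p = 0.00453) and without D20 replicate 6 (edgeR adjusted p = 0.00969).

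Guca1b, which encodes GCAP2 and lies next to Guca1a (chr17:47385393-47392967, plus strand, GRCm38), was barely read. Over the 6 MROs of a timepoint, 4 and 2 reads were counted at D20 and D22 and 16 and 8 reads at D25 and D30, and 4, 5, 2 and 1 MROs were at 0. The highest MRO, at D25, had 8 reads, a level of 0.463 normalized CPM. Summed over MROs, D30 was at 1.79 times D20, with a 95% exact interval from 0.479 to 8.12, and D25 was at 7.17 times D22, with an interval from 1.69 to 64.3. These intervals cover counting error only, 8 of the 16 reads at D25 came from 1 MRO, and the gene was not tested across MROs. Per kb of exon, Guca1b made up 0.406% ± 0.323 of the sum of both sensors at D30 (SD, n = 6).

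Recoverin, a calcium sensor of rods, cones and some cone bipolar cells that holds back GRK1, rose in all 3 steps. Rcvrn (chr11:67695326-67703333, plus strand, GRCm38) ran from 1.44 to 5.21 normalized CPM in the D20 MROs (median 2.47) and from 13.88 to 51.2 in the D22 MROs (median 18.6). Its D25 MROs ran from 151.4 to 209.2 (median 166.4) and its D30 MROs from 309.7 to 579.9 (median 534.7). All 4 timepoints stood apart. The step changes were 3.13, 2.74 and 1.51 on the log2 scale (SE 0.297, 0.266 and 0.251), with edgeR adjusted p of 5.2e-07, 1.91e-07 and 0.000162, and D30 was 166-fold above D20. At D20 the mean was 0.597% of its D30 mean. Bipolar markers, given above, also rose between these timepoints, and their part was not tested. Rcvrn lies inside the span of Glp2r on the other strand, with which it shares no exon base.

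Shutoff of the activated pigment begins with GRK1, which phosphorylates it. Grk1 (chr8:13405081-13421951, plus strand, GRCm38) was already at 67.68 to 128.2 normalized CPM at D20. It ran from 109.7 to 338.9 at D22, from 318.1 to 516.8 at D25 and from 397.7 to 873.6 at D30, so neighbouring timepoints overlapped. The means were 94.1 ± 21.9, 200.6 ± 88.2, 414 ± 77.0 and 555 ± 166 normalized CPM (SD, n = 6). The log2 change was 1.09 in the first step and 1.05 in the second (edgeR adjusted p = 0.00165 and 0.00117) and 0.42 from D25 to D30 (SE 0.206, adjusted p = 0.278).

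As raw reads, not corrected for gene length, kinase and inhibitor started far apart and approached each other. The log2 ratio of Rcvrn to Grk1 counts started at -5.11 ± 0.618 (D20), passed -3.03 ± 0.478 (D22) and -1.27 ± 0.339 (D25), and reached -0.19 ± 0.418 at D30 (SD, n = 6). Each step was a rise without overlap between the MROs of neighbouring timepoints (exact two-sided permutation tests, adjusted p = 0.00316 each). Reads of Rcvrn came to 0.029 times those of Grk1 at D20 and 0.878 times at D30, on this log-averaged scale of reads, which is not corrected for gene length. Per kb of exon the 2 genes did not end close together. The mean of Rcvrn was below that of Grk1 at D20, at 2.78 against 10.71 normalized CPM per kb. It was 24.57 against 22.84 at D22, 163.9 against 47.12 at D25 and 465.8 against 63.15 at D30.

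The pair that shuts off transducin rose at every step. Rgs9 (chr11:109225355-109298129, minus strand, GRCm38) had medians of 10.94, 16.5, 60.22 and 155.2 normalized CPM and ranged from 8.6 to 15.22 at D20 and from 143 to 251.4 at D30. The D20 and D22 MROs overlapped, and the later timepoints did not. The step changes were 0.82, 1.501 and 1.57 on the log2 scale (SE 0.191, 0.188 and 0.185), with edgeR adjusted p of 0.00916, 4.95e-06 and 8.34e-07. The first of these calls was lost with DESeq2 size factors (adjusted p = 0.0102) and in 14 of 24 fits that left out 1 MRO, with adjusted p up to 0.0436 (D20 replicates 1, 2, 3, 4 and 6, D22 replicates 2, 3 and 5, D25 replicates 3 to 6, and D30 replicates 4 and 5). Rgs9 is also known as a gene of striatal neurons. The forebrain markers had medians of 85, 33.4, 94.7 and 179 normalized CPM over the 4 timepoints, and their part was not tested.

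Rgs9bp (chr7:35578993-35585582, minus strand, GRCm38, 1 exon) encodes the membrane anchor without which RGS9 is unstable. Its D20 MROs ran from 17.73 to 34.14 normalized CPM, its D22 MROs from 34.82 to 77.23, its D25 MROs from 89.09 to 181.9 and its D30 MROs from 167.1 to 370.5. Only the D25 and D30 MROs overlapped, through D30 replicate 1. The step changes were 0.99, 1.23 and 1.23 on the log2 scale (edgeR adjusted p = 0.00328, 0.000169 and 0.000129), the first of which was lost without D20 replicate 2, 3 or 6 or D22 replicate 1, at adjusted p up to 0.0136. The log2 ratio of Rgs9 to Rgs9bp averaged -1.19, -1.41, -1.07 and -0.75 over the 4 timepoints, and none of its 4 comparisons passed 0.05 (exact permutation, adjusted p from 0.135 to 0.549). The spread of that ratio within a timepoint was wide, with an SD of 0.38 to 0.733.

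Aipl1 (chr11:72027963-72037509, minus strand, GRCm38) had medians of 67.05, 123.8, 245.1 and 438.3 normalized CPM. Its MROs ran from 53 to 73.95 at D20, from 88.55 to 205.5 at D22, from 216.6 to 287.7 at D25 and from 225.7 to 498 at D30, and only the D25 and D30 MROs overlapped. The step changes declined from 1.06 to 0.88 to 0.66 on the log2 scale (SE 0.164, 0.162 and 0.161), with edgeR adjusted p of 0.000164, 0.000499 and 0.00858. The last call was lost among annotated genes alone (0.63, adjusted p = 0.0147) and in 13 of 24 fits that left out 1 MRO, with adjusted p up to 0.0259 (D20 replicates 2, 3 and 6, each D25 replicate, and D30 replicates 3 to 6).

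AIPL1 supports the assembly of the rod phosphodiesterase, whose catalytic subunits are PDE6A and PDE6B. The log2 ratio of Aipl1 to Pde6b counts was -2.11 at D20 and -2.26 at D22, then -2.05 at D25 before it came to -1.40 at D30. At D22 it was nearly the same in all 6 MROs, from -2.31 to -2.23, although the log2 levels of Aipl1 and Pde6b themselves had an SD of 0.421 and 0.41 there. The ratio rose by 0.20 from D22 to D25 and by 0.66 from D25 to D30 (exact permutation, adjusted p = 0.00316 for both, no overlap). This rise holds against Pde6b only. Mean Pde6a was 1.35 normalized CPM at D20 and 310.5 at D30, 228-fold in the edgeR fit, beside 6.08-fold for Aipl1. For D30 against D25 the folds were 8.37 for Pde6a and 1.58 for Aipl1. Aipl1 thus rose by a smaller fold than Pde6a, from a higher mean at D20, 65.4 against 1.35 normalized CPM. A ratio of these 2 genes within MROs was not tested.

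**Figure D2:**
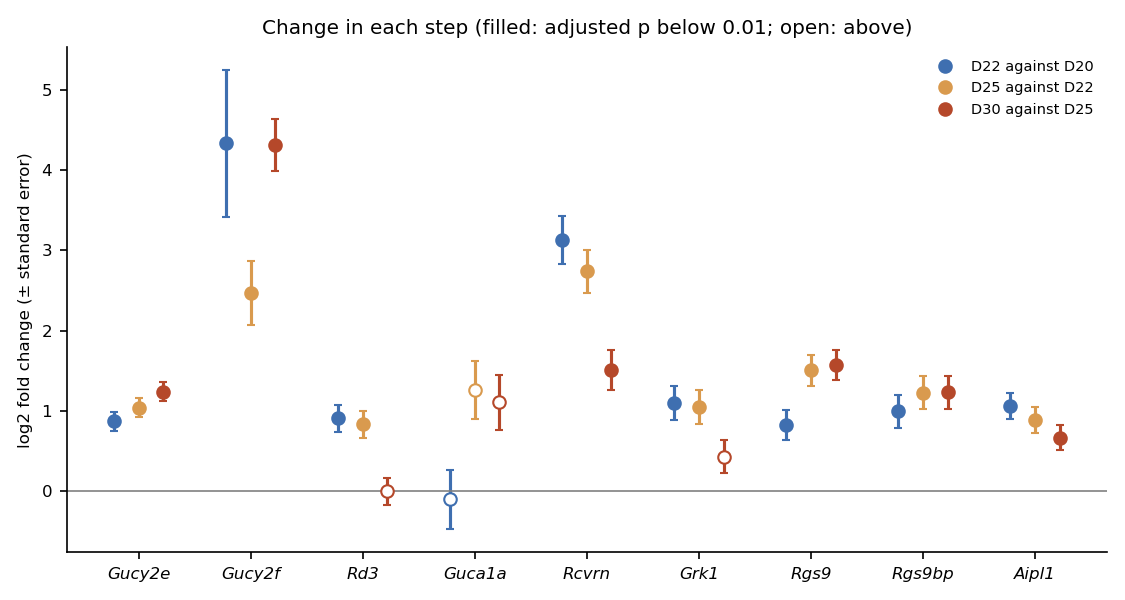
Log2 fold change (vertical axis) in the steps D20 to D22, D22 to D25 and D25 to D30 for the 9 tested genes, with bars of 1 standard error from the edgeR fit of 24 MROs; filled points passed an adjusted p of 0.01. Rd3, at -0.01, and Grk1, at 0.42, did not pass in the last step, in which Gucy2f stood at 4.32.

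Whether a gene changed by different amounts in consecutive steps was tested directly. The steps differ in length, and the contrasts compare whole steps on the log2 scale, not rates per day. No gene of the 9 passed 0.01 for the second step against the first or for the third against the second by edgeR, the one tool used for these contrasts, beside 0.0277% and 0.0447% of all features. At an unadjusted p under 0.05 stood 2 genes in the former contrast (Guca1a and Rgs9) and 3 in the latter (Gucy2f, Rcvrn and Rd3). The differing shapes of the curves are thus descriptions, apart from the ratios tested within MROs.

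**Figure D3:**
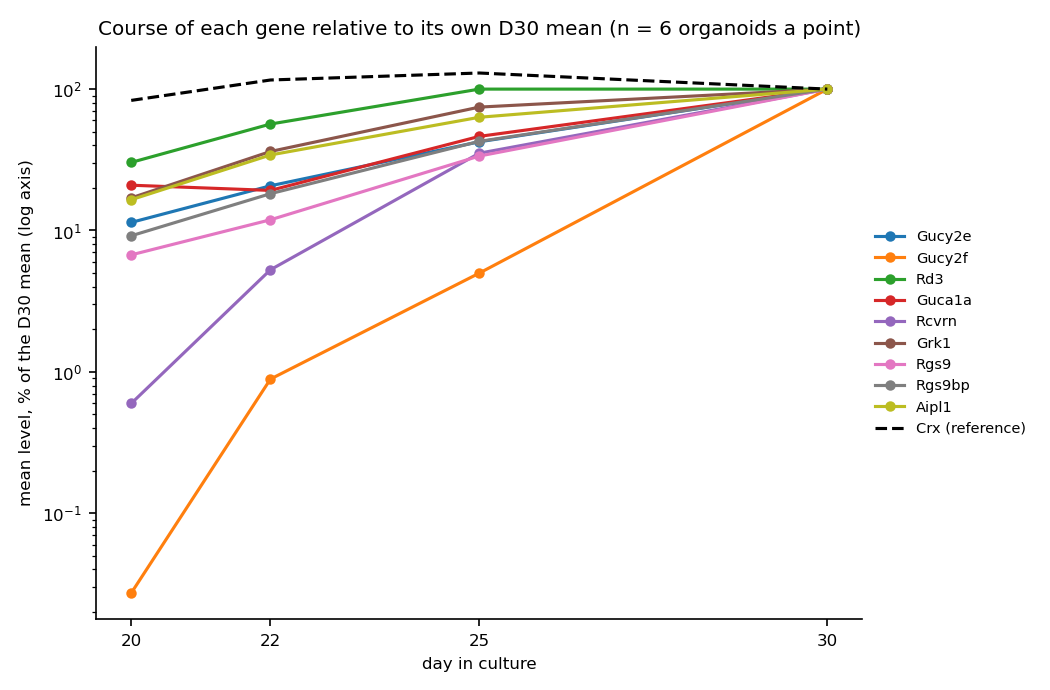
Mean level at D20, D22, D25 and D30 (horizontal axis, day in culture) as a percentage of the D30 mean of the same gene (vertical log axis, n = 6 MROs a point) for the 9 tested genes and Crx. At D25 Gucy2f was at 4.99% and Rgs9 at 33.6%, while Rd3 had reached 100% and Crx, the reference, 130%.

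As shares of the D30 mean, the genes spread over a wide range at D20, from 0.0272% for Gucy2f and 0.597% for Rcvrn to 30.3% for Rd3. At D25 Grk1 stood at 74.6%, Aipl1 at 63.2%, Guca1a at 46.3%, Rgs9bp at 42.7%, Gucy2e at 42.4%, Rcvrn at 35.2% and Rgs9 at 33.6%.

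The transcription factor CRX is made by photoreceptor precursors and mature photoreceptors, and its transcript served as a reference within each MRO. Crx averaged 628.5, 877.9, 985.1 and 755 normalized CPM at the 4 timepoints. Of 35 tests of a gene against Crx, 32 passed 0.05, all of them rises. The 3 that did not pass were Guca1a, Rgs9 and Rgs9bp from D20 to D22. From D25 to D30 all 9 genes rose relative to Crx without overlap (exact permutation, adjusted p = 0.00316), from 0.35 for Rd3 and 0.80 for Grk1 to 4.79 for Gucy2f on the log2 scale. Rd3 and Grk1 had not passed in that step on the scale of normalized CPM, and Crx itself was at -0.38 there without passing. The median change over all features was -0.02 in that step, so a feature at that median also rose relative to Crx. How many of all features rose relative to Crx was not counted. At D30 the genes varied less between MROs relative to Crx than alone in 8 of 9 cases: Gucy2e had an SD of 0.313 alone and 0.105 relative to Crx on the log2 scale, and Rd3 0.406 and 0.139. Gucy2f was the exception at D30, with 0.464 and 0.528. At D25 the same held for 3 of 9 genes. Among the genes that averaged at least 10 reads, it held for 6 of 8 at D20 and 7 of 8 at D22. How often it held over all features was not counted.

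**Figure D4:**
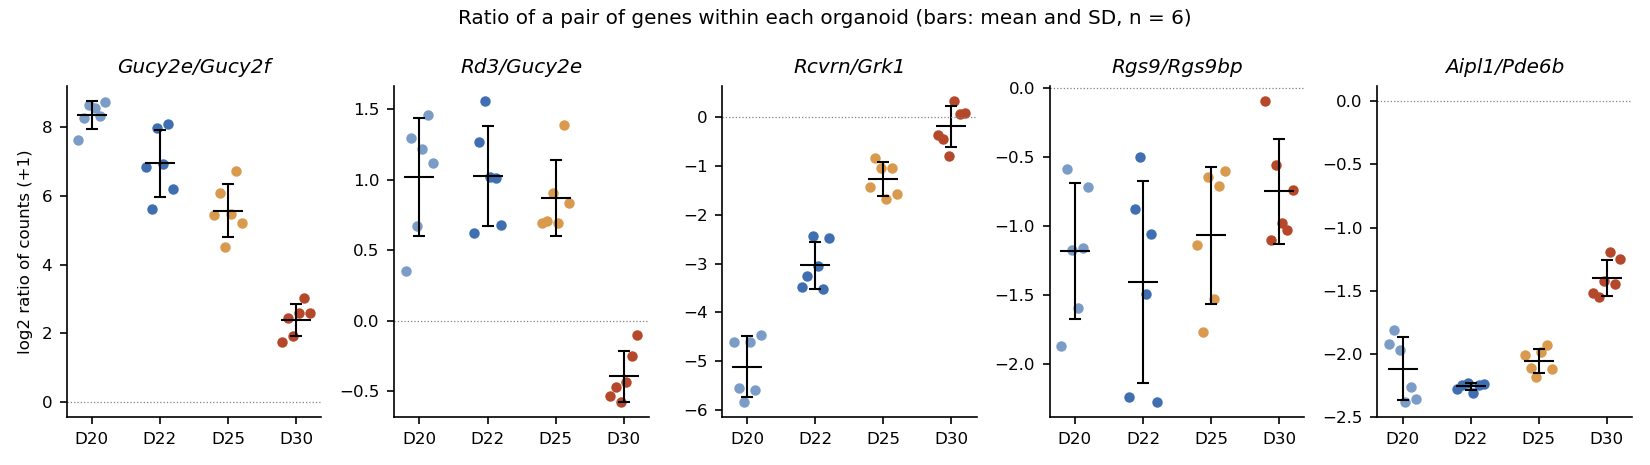
Log2 ratio of the counts of a pair of genes (1 added to each count) within each MRO at D20, D22, D25 and D30. Points are MROs, bars the mean and SD (n = 6). Counts are not corrected for gene length. Rcvrn against Grk1 went from -5.11 to -0.19, Gucy2e against Gucy2f ended at 2.39, and Rgs9 against Rgs9bp overlapped at all timepoints. Rd3 against Gucy2e crossed 0 between D25 and D30, while per kb of exon the Rd3 mean stayed above that of Gucy2e at D30. Per kb of exon the Rcvrn mean was above that of Grk1 from D22 on.

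MROs of 1 timepoint differed in the set as a whole. D30 replicate 1 was the lowest of its timepoint in 7 of the 9 genes and D30 replicate 3 the highest in 5. In D30 replicate 1 the photoreceptor markers summed to 3120 normalized CPM, the lowest of the timepoint, and the Müller glia markers to 1990, the highest. At D22 replicates 2 and 3 were the highest in 3 and 4 genes, and their photoreceptor markers summed to 3500 and 4340 normalized CPM against 2270 to 2960 in the others. The part of these differences was not tested.

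Levels of different genes were compared per kb of exon. At D30 the order of the means was Rcvrn at 465.8 normalized CPM per kb, Aipl1 at 126, Grk1 at 63.1, Rgs9bp at 44.7, Rd3 at 31.8, Rgs9 at 27.2, Gucy2e at 23.8, Guca1a at 8.14, Gucy2f at 5.28 and Guca1b at 0.0351. Rcvrn stood clear of Aipl1, Gucy2e of Guca1a, and Gucy2f of Guca1b in every MRO. Rd3 and Rgs9 kept their order in 4 of 6 MROs, Rgs9 and Gucy2e in 5, and Guca1a and Gucy2f in 5, so these neighbours did not differ beyond their spread. At D20 the order was led by Aipl1 at 20.7 normalized CPM per kb, before Grk1 at 10.7 and Rd3 at 9.61, the last 2 of which kept their order in 4 of 6 MROs. Rcvrn was then at 2.78, level with Gucy2e at 2.7, and Rgs9 at 1.83 was level with Guca1a at 1.7.

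**Figure D5:**
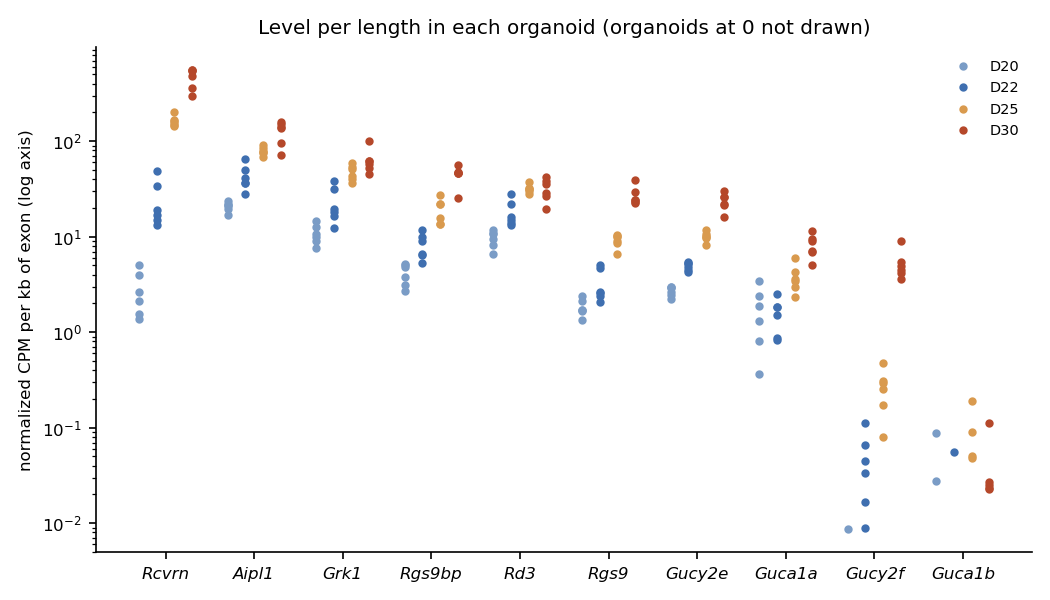
Normalized CPM per kb of exon (log axis) of the 10 genes in each MRO, coloured by timepoint and ordered by the D30 mean; MROs at 0 are not drawn. Rcvrn moved from the middle of the order at D20, at a mean of 2.78, to its top at D30, at 465.8, and Gucy2f and Guca1b lie below the rest up to D25.

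The other genes of the cascade were read alongside. Of all features 1.62% rose from D20 to D22, and of annotated genes 2.56%. Between D20 and D30, 13.9% of all features and 25.1% of annotated genes rose, and 13.0% of all features fell. Of 11 rod genes, 10 rose from D20 to D22 and all 11 from D20 to D30, with a median change of 5.31 over the whole period, above the median of 3.14 of the 9 genes described here. Gnat1, the rod transducin, rose by 10.04 on the log2 scale between D20 and D30, Pde6a by 7.84, and the channel subunits Cnga1 and Cngb1 by 7.13 and 6.90. In the last step Gnat1 was at 4.81, beside 4.32 for Gucy2f, and Pde6b at -0.01, beside -0.01 for Rd3. Cone genes were mixed: of 9 tested, 4 rose and 3 fell from D20 to D30, with Slc24a2 at 3.24, Arr3 at 1.22, Gngt2 at -1.74 and Opn1sw at -2.88. Of 9 genes used by both cell types or by the supply of their proteins and nucleotides, 8 rose over the whole period, among them Gnb5, the third subunit of the RGS9 complex, at 2.47, the guanylate kinase Guk1 at 2.46, phosducin (Pdc) at 1.56 and the lipid-binding trafficking protein Unc119 at 1.38. The 1 gene of the 9 that fell, named after its values were seen, was Rgs11, which ON bipolar cells use, and it fell by 1.22.

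Relatives outside the photoreceptor cascade were read as well, beside the same shares: 1.62% of all features rose from D20 to D22. Between D20 and D30, 13.9% of all features and 25.1% of annotated genes rose, and 13.0% of all features fell. Of 8 other guanylate cyclase genes 4 had too few reads to be tested, and among the 4 tested Gucy1a1 and Gucy1b1, the subunits of the nitric oxide receptor, rose by 1.27 and 1.07 from D20 to D30 and Npr2 fell by 0.70. Of 10 neuronal calcium sensors related to recoverin, none rose from D20 to D22 by edgeR and 6 did from D20 to D30, with Vsnl1 at 4.97, Hpcal4 at 3.58, Kcnip4 at 2.26 and Hpca at 1.81, beside the 7.38 of Rcvrn.

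Genes with the nearest course were sought among 10830 annotated genes by the root mean square difference of the mean-centred log2 profiles over 24 MROs, for the 8 genes that averaged at least 100 normalized counts. Gucy2f reached that average through D30, and its profile is near 0 at D20 and D22. Rcvrn had the channel subunits Cnga1 (0.514) and Cngb1 (0.629) among its 3 nearest. Rd3 lay nearest to Casz1 (0.156), Pde6b (0.164) and Pdc (0.169), Aipl1 to Stx3 (0.154), Impg2 (0.171) and Fam161a (0.176), and Grk1 to Fam161a (0.232), Tdrd7 (0.244) and Pex5l (0.26). Gucy2e had Atp8a2 (0.294), Camk1d (0.297) and Tmem229b (0.306) next to it, and Rgs9bp had Gucy2e (0.335), Dnah9 (0.391) and Atp8a2 (0.432). For Rgs9 they were Herc3 (0.271), Dnah9 (0.358) and Wdr17 (0.373). Gucy2f, whose course was matched least closely of the 8, had 5430419D17Rik (0.531), Scn7a (0.754) and Fgf2 (0.798).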

How the data were processed

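Total RNA of single MROs was depleted of ribosomal RNA and sequenced as strand-specific single-end libraries. Per the labels and methods, the authors trimmed reads with cutadapt 1.5, aligned them to mouse GRCm38 with HISAT2, assembled transcripts with StringTie 1.3.3 and deposited raw counts per gene or assembled locus from HTSeq 0.6.1. The strand setting of the counting is not given in the sources used here. Reads HTSeq could not assign were left out of the totals. Ambiguous reads came to 0.814% to 1.18% of the counted and ambiguous reads together.

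Counts were tested as deposited with edgeR 4.0.16 (R 4.3.3): TMM scaling, a base mean of at least 10 (46949 of 126602 features kept, 16253 of them annotated), and 1 quasi-likelihood fit of all 24 MROs with timepoint as the only term. A feature was called at a Benjamini-Hochberg adjusted p below 0.01. DESeq2 1.42.0 served as an alternative. Ratios within MROs used log2(count + 1) where both genes averaged at least 10 reads in 1 of the timepoints compared, with exact two-sided permutation tests (scipy 1.17.1). Exon lengths and overlaps came from GENCODE on GRCm38. The text names all 10 genes, up to 4 genes with the largest change past the threshold of each list, Crx, and the 3 annotated genes nearest in course to each gene that averaged 100 or more normalized counts (log2 of normalized CPM + 0.5). A gene that these rules would name is not reported here. Genes, lists and rules were chosen with earlier results of these data known. The tests were checked on simulated counts. Other settings were DESeq2 size factors, other filters, the compared timepoints alone, a replicate block and leaving out each MRO in turn. Libraries of a timepoint all differed beyond sampling noise (at least 5.14 chi-square units for each degree of freedom).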

Additional observations from a re-analysis of the deposited data

Results flagged for a closer look

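Single MROs stood apart from the other 5 of their timepoint in 3 of 34 sets of 6 values examined by Dixon's test. Chance alone marks about 1 set in 20. D30 replicate 3 was high in Gucy2f, at 73.8 normalized CPM, and in Grk1, at 874 normalized CPM. D30 replicate 1 was low in Rgs9bp, at 167 normalized CPM.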

How the results depend on the processing

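Over 31 other settings, 1052 of 1116 fold changes of the 9 genes kept their direction and their side of 0.01, 45 lost the call, 3 gained it and 16 changed sign. The sign changes were near 0: Rd3 from D25 to D30 was 0.038 with DESeq2 size factors and 0.036 by DESeq2's test and ran from -0.11 to 0.10 when 1 MRO was left out, and Guca1a from D20 to D22 ran from -0.32 to 0.20. Rgs9 from D20 to D22 lost its call with the compared timepoints only (0.82, adjusted p = 0.0221) and filterByExpr (0.81, 0.0102), and Gucy2f did with the compared timepoints only (4.29, 0.0467). Aipl1 from D25 to D30 lost it with the compared timepoints only (0.0109) and filterByExpr (0.0108), and Guca1a in that step gained it with the compared timepoints only (0.00867). Leaving out 1 MRO gave 5 to 8 rising genes from D20 to D22, 8 to 9 from D22 to D25, 5 to 6 from D25 to D30 and 9 from D20 to D30. The count of partner genes that fell from D22 to D25 was 1 (Rgs11), where 2.19% of all features fell. It was 0 with DESeq2 size factors, filterByExpr or a replicate block and 2 with the compared timepoints only. Leaving out 1 MRO gave 0 to 1 such genes. MROs with the same replicate number did not deviate together (r from -0.0833 to 0.214 over 36 pairs), so the numbers do not pair them. With a replicate block 7 genes rose from D20 to D22, without Rgs9 (0.79, adjusted p = 0.016), and the other 3 counts of rising genes were 8, 6 and 9. Ratio tests past 0.05 numbered 11 to 12 for gene pairs and 30 to 32 against Crx over all settings, and 20 to 24 of 24 nearest genes were shared with other pseudocounts. Depth limits Guca1b, and Gucy2f before D25.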
